A study of Ovis aries with 16 samples.

Results

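The comparison set amnion whose fetal urine had been kept out of the amniotic sac against amnion into which urine could still flow. Its members were all 16 libraries of the series, 1 from each of 16 pregnant sheep carrying a singleton fetus. Urine was removed in 8 animals. In 4 of them (UD) it was drained and not replaced, and in the other 4 (UDR) it was drained and lactated Ringer's solution was given in the same volume. Urine was kept in 8 animals. They were 4 controls (C) and 4 animals (IA) that received lactated Ringer's solution as a continuous infusion into the sac, with 2 liters given each day. All animals were instrumented with vascular, amniotic and bladder catheters at a gestational age of 121 ± 0.5 days (SE; term falls at 145 to 150 days), and the amnion was taken straight after a protocol of 2 days. The libraries were assigned by their treatment label alone, so no measured value decided which side a library was on.

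Fetal urine is the main inflow of amniotic fluid in late gestation. Fluid and solutes leave the sac again by swallowing and by the intramembranous route, across the amnion into fetal blood vessels, and vesicles are thought to carry part of that flow. Draining urine takes away both a volume of fluid and the solutes and proteins that urine carries. Ringer's solution, a salt solution without protein, gives back water and salts. Averaging UD with UDR, and C with IA, compares absence with presence of urine over both states of Ringer's supply. The supply was not the same in both, because UDR received a replacement of what was drained and IA an addition.

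The table named genes by Ensembl sheep gene ID only. Of its 25197 IDs, 0 matched the reference gene table, so neither vesicle and water channel genes nor cell type markers could be looked up, and the label amnion could not be checked against markers. The rule kept the 13569 genes with at least 1 CPM (reads of a gene scaled to a common library size) in at least 4 of the 16 libraries, and these held 99.8% of all counts. Libraries held 12245460 to 30767263 counts. UDR 2 and UDR 3 were the largest, since both had been run in 2 lanes. C was sequenced in lane 1 and IA in lane 3. UD was split between lanes 1 and 2 and UDR was in lane 2, with second runs of UDR 2 and UDR 3 in lane 3.

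No gene passed the test of urine removed against urine kept. The fit of all 4 groups by edgeR's quasi-likelihood test called 0 of 13569 genes (0% called) at an adjusted p under 0.05, and the smallest adjusted p was 0.9995. At an unadjusted p under 0.05 there were 488 genes, or 3.6% of those tested, where 678 would have such a p if no gene differed. Of the 488, 375 were higher with urine removed (2.76% of genes tested) and 113 were lower (0.833%). The split differed between fits. It was more even when the lane was a term (914 higher and 738 lower) and by limma-voom with library quality weights (1178 and 849). The replicate block (209 and 135) and upper quartile scaling (315 and 151) also made it more even. It stayed near the first split in a fit of 2 pooled groups (384 and 101), with first runs only (369 and 110) and with RLE scaling (393 and 106). The same held for DESeq2 at an unadjusted p (484 and 168). At an adjusted p under 0.05 DESeq2 called 10 genes (0.0737%). The weighted limma-voom fit had 0 calls (0%) and a smallest adjusted p of 0.0571. The median log2 difference over all genes was 0.01. Not 1 gene had its 8 values with urine removed all above the 8 with urine kept (0% of genes tested), and 0 genes had them all below (0%).

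The comparison of 8 animals with 8 was more precise than that of 4 with 4 in either of its arms, UD minus C and UDR minus IA. The median SE of its log2 difference was 0.28, against 0.40 for UD minus C and 0.40 for UDR minus IA. The median 95% interval reached 0.60 to either side on the log2 scale, which is 1.52-fold. For 62.5% of genes the whole interval lay within 2-fold of no difference, and for 28.7% within 1.5-fold. A 2-fold difference was thus outside the interval of most genes, though not of all. On simulated counts of the same comparison, over 13569 genes, edgeR recovered 14% of 50 genes changed 2-fold and 82% of 50 changed 4-fold. In all, 200 genes were changed there, and recovery with fewer changed genes was not computed. The simulated counts were drawn independently for each gene with edgeR's own estimates of spread. They held no animal that was outlying over many genes, so recovery in the real libraries may differ.

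How firmly a gene could be judged depended on its abundance. Of 4310 genes with a mean under 10 CPM, 36.9% had an interval within 2-fold, with a median SE of 0.43. Between 10 and 100 CPM the share was 74.8% of 7316 genes, and between 100 and 1000 CPM it was 74.5% of 1841. It was 44.1% of the 102 genes at 1000 CPM or more, which vary widely between animals. The share with an unadjusted p under 0.05 was 4.5%, 3.13%, 3.26% and 4.9% in these classes, in order of abundance. Over all genes it was 3.6%. In the most abundant class the share stands for only 5 of 102 genes, so the order of the classes is not a result about abundance.

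The most abundant transcripts had estimates in both directions. The 10 with the highest mean, from 6187 to 16602 CPM, had log2 differences from -0.62 to 1.05, with 6 higher and 4 lower. Their smallest unadjusted p was 0.0154. Genes at 1000 CPM or more took 28.0% ± 6.13 of the counts with urine removed and 27.3% ± 3.36 with urine kept (SD, n = 8).

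Urine accounted for little of the variance between libraries. In log2 CPM over all genes kept, 5.98% of the variance lay between urine removed and urine kept. Ringer's solution given against not given took 4.22%, and the interaction of both took 10.9%. Each of these terms would hold 6.67% if variance were spread evenly over the degrees of freedom. The remaining 78.9% lay between animals of the same group. IA 2 held 19.1% of that within-group variance and UDR 3 held 11.6%, against 1.53% in C 2, the lowest.

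The main axes of variation crossed the comparison. On the first principal component, with 35.5% of the variance, urine-removed libraries ran from -54.7 to 109 with a median of -9.07, and urine-kept libraries from -52.3 to 169 with a median of -29.1. The means differed by 8.66 (exact permutation p = 0.795, two-sided, 8 against 8; adjusted p = 0.795 over 4 components). IA 2, UD 1 and UD 4 scored highest on the first component, at 169, 109 and 57.4, and UDR 3 came next at 26.8. On the second, with 21.6%, the removed libraries ran from -39.0 to 106 and the kept ones from -37.4 to 41.7. UDR 3, UDR 2 and UD 2 were the 3 highest there, all with urine removed, and C 1 came next. The difference of the means was 34.8 (exact permutation p = 0.160, adjusted p = 0.640), and 25.1 without UDR 3 and IA 2. Components 3 and 4 had adjusted p of 0.795 each in the same exact permutation test. The other 5 libraries with urine removed lay below C 1 on the second component.

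**Figure D1:**
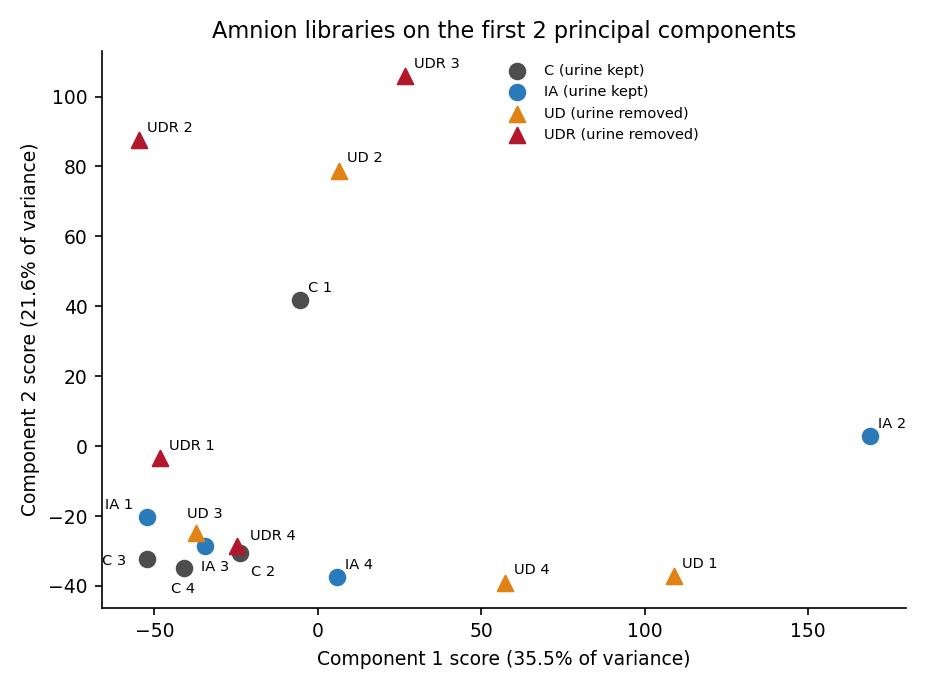
Scores of the 16 libraries on the first component (x axis) and the second (y axis) of log2 CPM over the genes kept, with the share of variance in each axis label. Triangles are libraries with urine removed (UD, UDR) and circles those with urine kept (C, IA). Both kinds mix at the lower left. IA 2 lies farthest right with a score of 169, followed by UD 1 at 109 and UD 4 at 57.4. UDR 3, UDR 2 and UD 2 lie at the top.

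Library measures overlapped as well. Total counts averaged 18835700 ± 6249630 with urine removed and 15223300 ± 2009830 with urine kept (SD, n = 8; exact permutation p = 0.158, adjusted p = 0.503 over 4 measures), a difference that contains the second runs of UDR 2 and UDR 3. The number of genes with counts was 16848 ± 414 and 16630 ± 316 (exact permutation p = 0.252). The 10 most abundant genes of each library took 12.96% ± 4.54 and 11.1% ± 4.90 of its counts (exact permutation p = 0.432). The median Spearman correlation of a library with the others was 0.895 ± 0.0407 and 0.913 ± 0.0671 (exact permutation p = 0.579), and it was lowest in IA 2, at 0.7505. The ranges of removed and kept libraries overlapped in each measure, and their part in the gene values was not tested.

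Of the genes higher with urine removed, the smallest p was that of ENSOARG00000001658. Its level was 5.97, 20.5, 7.93 and 3.29 CPM in UD 1 to 4 and 15.8, 31.7, 56.4 and 10.0 CPM in UDR 1 to 4. It was 6.31, 2.08, 2.64 and 3.59 CPM in C 1 to 4 and 5.57, 3.65, 5.64 and 7.08 CPM in IA 1 to 4. In 6 of the 8 removed libraries it lay above every kept library, and UD 1 and UD 4 overlapped with them. The log2 difference was 1.87 (SE 0.43, 95% interval 0.96 to 2.78), with an unadjusted p of 0.000588 and an adjusted p of 0.9995 by edgeR. DESeq2 gave an adjusted p of 0.0318 and limma-voom one of 0.148.

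ENSOARG00000007806 came next. It was at 7.26, 9.57, 12.9 and 10.3 CPM in UD 1 to 4 and at 25.1, 27.6, 120 and 16.04 CPM in UDR 1 to 4. In C 1 to 4 it was at 5.10, 6.54, 8.05 and 5.29 CPM, and in IA 1 to 4 at 8.32, 13.2, 8.37 and 7.14 CPM. All UDR libraries lay above all kept libraries, while all UD libraries lay below the highest of them, IA 2. The log2 difference of 1.52 (SE 0.36; edgeR adjusted p = 0.9995) was 0.68 (SE 0.50) in UD minus C and 2.35 (SE 0.52) in UDR minus IA. The gene also had a log2 difference of 1.40 (SE 0.36) between Ringer's solution given and not given. The arms differed by 1.67 (SE 0.71; edgeR adjusted p = 0.425). Without UDR 3 the urine difference was 0.99, a move of over 1.5 times in the estimate. DESeq2 gave an adjusted p of 0.0459 with all libraries.

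The gene with the smallest p among those lower with urine removed was ENSOARG00000004722, a gene near the limit of detection. It reached 1 CPM in 0 of 8 libraries with urine removed and in 5 of 8 with urine kept, so it was tested only because of its level in the kept libraries. It was at 0.246, 0.126, 0 and 0.0599 CPM in UD 1 to 4 and at 0.273, 0.0349, 0.0400 and 0.588 CPM in UDR 1 to 4, which is 0 to 8 reads per library. In C 1 to 4 it was at 0.402, 1.19, 7.41 and 1.48 CPM and in IA 1 to 4 at 0.250, 4.24, 1.20 and 0.220 CPM. In 5 of the 8 kept libraries it lay above every removed library, and C 1, IA 1 and IA 4 overlapped with them. The log2 difference was -3.61 (SE 0.90; edgeR adjusted p = 0.9995; DESeq2 adjusted p = 0.0453). With so few reads its size is uncertain: the 95% interval ran from -5.53 to -1.69.

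ENSOARG00000014723 was also low in abundance, and it too was tested through its level with urine kept. There 7 of 8 libraries reached 1 CPM against 1 of 8 with urine removed, counted as in the filter, before TMM scaling (edgeR's adjustment of library sizes). After TMM scaling, as in the levels given here, UDR 1 is over 1 CPM too. The gene was at 1.17, 0.252, 0.566 and 0.539 CPM in UD 1 to 4 and at 1.02, 0.489, 0.0400 and 0.368 CPM in UDR 1 to 4. In C 1 to 4 it was at 0.604, 1.56, 1.35 and 8.31 CPM and in IA 1 to 4 at 1.001, 4.04, 3.04 and 5.82 CPM. In 6 of the 8 kept libraries it lay above every removed library, and C 1 and IA 1 overlapped. The log2 difference was -2.54 (SE 0.65; edgeR adjusted p = 0.9995; DESeq2 adjusted p = 0.0537). It was -2.22 (SE 0.91) in UD minus C and -2.86 (SE 0.93) in UDR minus IA, both of which entered its selection.

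**Figure D2:**
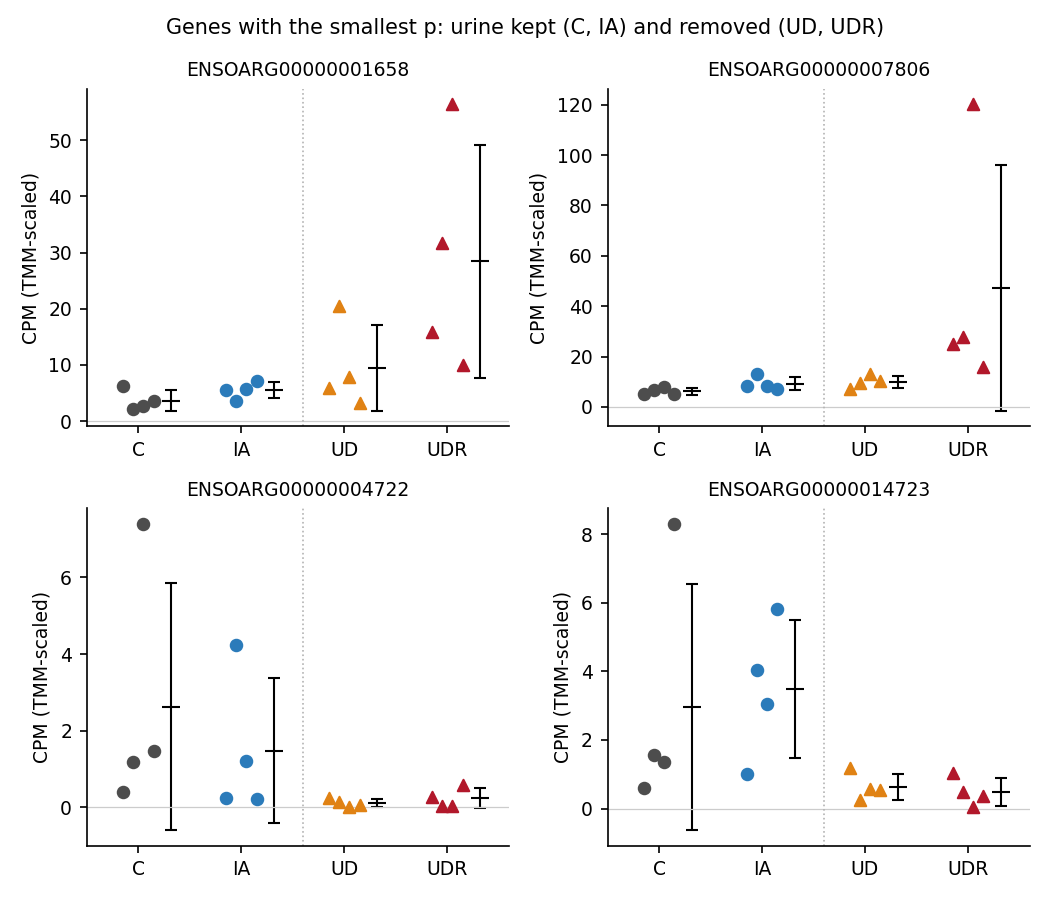
Level in CPM (y axis, linear, TMM-scaled) of the 4 genes named in the text, in each of the 4 libraries of C, IA, UD and UDR (x axis); points are libraries, and the dash with bars beside them is the mean ± SD. In every panel the groups left (urine kept) and right (urine removed) of the dotted line overlap, and UDR 3 is the highest point of both upper panels.

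DESeq2's 10 calls (0.0737% of genes tested) were 9 higher and 1 lower. They had log2 differences by DESeq2 of 1.53 to 12.3 for the higher genes and -3.64 for the lower one, ENSOARG00000004722. All 10 had an unadjusted edgeR p under 0.05, and ENSOARG00000001658 and ENSOARG00000007806 were among the 9. With UDR 3 left out DESeq2 called 1 gene, and without both UDR 3 and IA 2 it called 23, of which 22 were higher. As the number of calls moved with UDR 3 and IA 2, DESeq2's calls are weak support. On simulated counts of this comparison with 200 genes changed, DESeq2 made 51 false calls and edgeR 5. Those counts used edgeR's own estimates of spread and held no outlying animal, so they cannot tell how many of the 10 calls are false.

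A single animal led most of the higher genes. UDR 3 was the highest of the 16 libraries in 242 of the 375 higher genes (64.5%) and in 14.6% of all genes tested. UDR 2 was the highest in 62 more (16.5%), against 9.44% of all genes tested. The 375 were selected on these same values, so this is a description of them. Without UDR 3 there were 280 genes at an unadjusted p under 0.05, of which 193 were higher and 87 lower. UDR 3 was also the lowest library in 45 of the 113 lower genes, which were selected on these values too, and in 1851 of all 13569 genes tested. The other single libraries that moved the number by over 1.5 times were C 2, without which it was 303, and C 1, UDR 4 and IA 2, without which it was 840, 868 and 982. Without both UDR 3 and IA 2 it was 647, with 484 higher and 163 lower, and edgeR again called 0 genes.

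**Figure D3:**
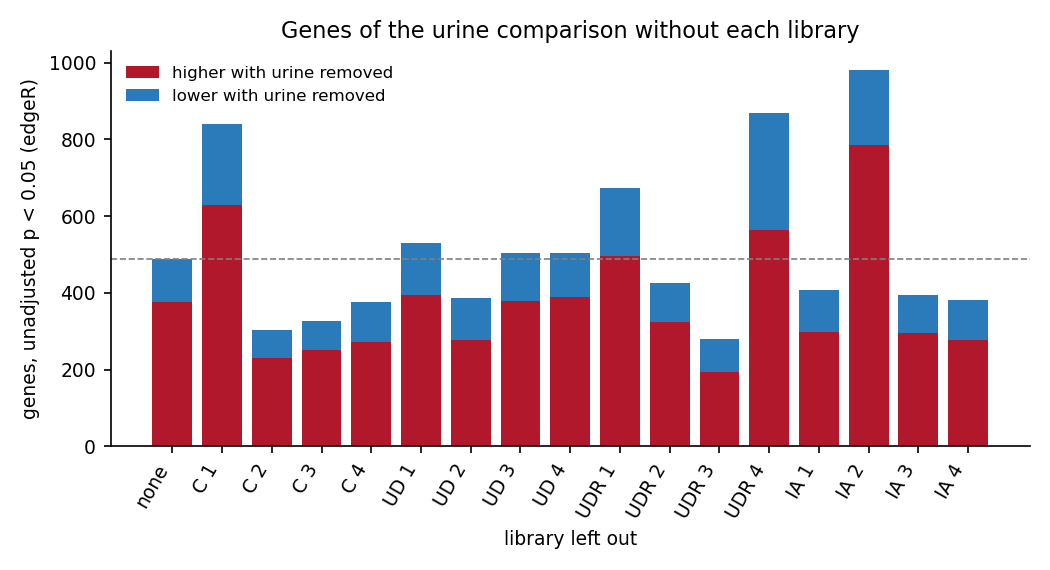
Number of genes at an unadjusted p under 0.05 in the urine comparison (y axis, edgeR, stacked as higher and lower with urine removed) with all libraries ("none") and with each library left out in turn (x axis). The dashed line marks the 488 genes of the full fit; the bars run from 280 without UDR 3 to 982 without IA 2, and higher genes outnumber lower ones in each.

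The comparison has 2 arms that share no library: UD minus C, without Ringer's solution, and UDR minus IA, with it. With all libraries the arms went apart more often than together, and the signs were not counted with a library left out. Over all 13569 genes, 8017 (59.1%) had opposite signs in the arms, 2832 were higher in both and 2720 lower in both. The correlation of the 2 log2 differences across genes was -0.30 (Pearson) and -0.24 (Spearman), a description over genes, which are not independent replicates. The pooled difference is the mean of the 2 arms, so opposite differences offset each other there in part or in full, depending on their sizes.

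With all libraries, edgeR found more genes with a small p in each arm than in the pool of both. This order turned over without IA 2 (982 in the pool, 776 in UDR minus IA), without both UDR 3 and IA 2 (647 and 398), and, for UD minus C, without UD 1 (529 in the pool, 242 in the arm), UD 4 (505 and 482) or UDR 4 (868 and 695). It also turned over by weighted limma-voom (2027 in the pool, 1139 in UDR minus IA) and with the lane as a term (1652 in the pool, 1093 in UD minus C). UD minus C had 722 at an unadjusted p under 0.05 (5.32% of genes tested), of which 618 were higher (4.55%) and 104 lower (0.766%). By weighted limma-voom these were 2763 and 2538, and within lane 1 they were 1116 and 639. UDR minus IA had 1211 (8.92%), of which 510 were higher (3.76%) and 701 lower (5.17%). The excess of lower genes rested on IA 2: without it 544 were higher and 232 lower, and without both UDR 3 and IA 2 the numbers were 256 and 142. Weighted limma-voom gave 665 and 474, and the runs within lane 3 gave 713 and 673. edgeR called 0 genes in both (0% called), with smallest adjusted p of 0.909 and 0.513. The calls of DESeq2 numbered 12 (0.0884%) and 56 (0.413%). Those of the weighted limma-voom fit numbered 3249 (23.9%) and 0 (0%). The weights it gave ranged from 0.201 for IA 2 to 5.07 for UD 4. They were 1.12, 0.370, 0.345 and 5.07 in UD 1 to 4, and 0.590, 4.78, 2.37 and 1.02 in C 1 to 4. UD 4 and C 2 thus weighed most in the UD minus C calls of that fit. Of the 13569 genes tested, 20 had an unadjusted p under 0.05 in both arms with the same sign, 15 higher and 5 lower. Another 219 had it with opposite signs. Of these 219, 216 were higher in UD than in C and lower in UDR than in IA. These numbers come from all libraries, and what chance would give was not computed. UD 1, UD 4 and IA 2 scored highest on the first component, at 109, 57.4 and 169. A gene high in all of them is moved up in UD minus C and down in UDR minus IA. The part of these libraries in the 216 genes was not tested.

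The test of the difference between the arms bears on the same pattern. At an unadjusted p under 0.05 there were 1364 genes (10.1% of genes tested), of which 1149 (8.47%) had a lower urine difference with Ringer's solution than without it and 215 (1.58%) a higher one. By weighted limma-voom the split was near even, with 1858 lower and 1912 higher. edgeR called 0 genes (0% called), with a smallest adjusted p of 0.218. DESeq2 had 461 calls (3.4%), and the weighted limma-voom fit had 0 (0%). Without UD 1 the number was 844 and without IA 2 it was 848. The 375 genes higher with urine removed had a median log2 difference of 0.77 in UD minus C and of 1.66 in UDR minus IA. For the 113 lower genes these medians were -0.60 and -0.84. Their signs follow from how they were chosen, and the medians were farther from 0 in UDR minus IA. Without UDR 3 and IA 2, UDR minus IA had 398 genes at an unadjusted p under 0.05 in place of 1211, and UD minus C had 1293 in place of 722.

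**Figure D4:**
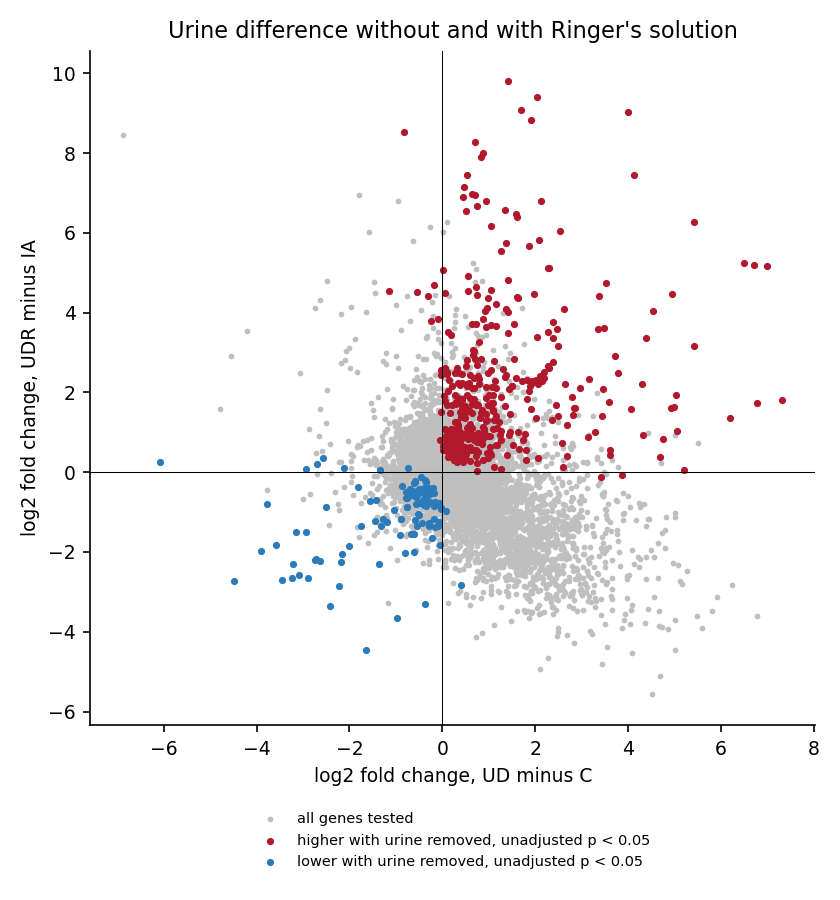
Log2 fold change of each gene tested in UD minus C (x axis) against UDR minus IA (y axis), 2 arms of the urine comparison that share no library. Grey points are all 13569 genes, and red and blue points are the 375 higher and 113 lower genes at an unadjusted p under 0.05, nearly all at the upper right and lower left because both arms enter their selection (13 of the 375 and 9 of the 113 have opposite signs in the arms); a broad arm of grey points runs to the lower right, higher in UD than in C and lower in UDR than in IA.

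Lane and treatment were partly aligned, so the comparison was also made within lanes. With the lane as a term, the groups and lanes form 6 combinations, and UD minus C then rests on UD 1 and UD 2 in lane 1 and UDR minus IA on the lane 3 runs of UDR 2 and UDR 3. The other 4 removed libraries, all in lane 2, enter the fit through the lane estimate and the spread, and not through these differences. In this fit edgeR called 15 genes (0.111% of genes tested), 8 higher with urine removed (0.059%) and 7 lower (0.0516%), and 1652 genes had an unadjusted p under 0.05. ENSOARG00000001658 was among the 8, with a log2 difference of 2.42 (SE 0.39; edgeR adjusted p = 0.0481).

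The genes called in that fit were chosen on UD 1, UD 2, UDR 2 and UDR 3, so larger values there than in the other 4 removed libraries follow from the choice. For the 8 higher genes the median difference from C and IA in mean log2 CPM was 2.45 in UD 1, UD 2, UDR 2 and UDR 3, and 0.30 in UD 3, UD 4, UDR 1 and UDR 4, with a range of -0.66 to 0.91 in the latter. For the 7 lower genes it was -2.45 and -0.06, with a range of -0.50 to 0.41. Both sets share the C and IA libraries. ENSOARG00000001658 differed by 2.32 in the first 4 libraries and by 0.91 in the others, and ENSOARG00000007806 by 1.55 and 1.02. The 15 calls rest on UD 1, UD 2, UDR 2 and UDR 3 for urine removed. UDR 2 and UDR 3 were run in both lanes 2 and 3, and their runs differed little. The chi-square per degree of freedom between runs was 1.03 and 1.06, against at least 39.6 between libraries. No library of lane 1 was run in another lane, so lane 1 and its animals cannot be told apart. The part of the lane in the 15 calls was not tested.

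Within single lanes ENSOARG00000001658 had a log2 difference of 1.84 (SE 0.64) in lane 1, UD 1 and UD 2 against C, and of 3.01 (SE 0.38) in lane 3, UDR 2 and UDR 3 against IA. For ENSOARG00000007806 the values were 0.41 (SE 0.37) and 3.02 (SE 0.61), and for ENSOARG00000014723 -2.08 (SE 1.28) and -4.10 (SE 1.40). ENSOARG00000004722 had -3.77 (SE 1.41) in lane 1. In lane 3 it had 0 reads in both UDR 2 and UDR 3 and 4, 64, 19 and 4 reads in IA 1 to 4, so no fold is given. None passed the test within a lane, where edgeR's adjusted p ran from 0.122 to 0.727. These libraries are among those on which the 4 genes were chosen, so their direction within a lane is no independent support.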

How the data were processed

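RNA-seq libraries of amnion were compared. Per the labels' protocols, polyadenylated RNA was fragmented and copied from random hexamers. The authors deposited raw read counts for each gene. FastQC 0.11.3, HTSeq 0.6.1 and DESeq2 are named in the submitters' processing notes. Aligner, build, annotation and strandedness are not stated there, so values of overlapping, antisense or near-identical genes are uncertain.

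The 18 columns each name a library and lane. Both runs of UDR 2 and of UDR 3 were summed (chi-square per degree of freedom between runs 1.03 and 1.06; at least 39.6 between libraries). Genes with 1 CPM or more in at least 4 libraries were scaled by TMM, and 4 group means were fitted by the robust quasi-likelihood F test of edgeR 4.0.16 (R 4.3.3). SEs were taken from the F statistic. CPM are TMM-scaled, except in the filter and in the counts of libraries that reached 1 CPM. Tests were two-sided, with Benjamini-Hochberg adjustment over all genes and a threshold of 0.05; log2 CPM used a prior count of 2. The test of urine was tested on simulated counts. Alternatives included DESeq2 1.42.0 and limma 3.58.1. Genes are given by ID, the 2 with the smallest p in each direction. The libraries, the rule and the tests were chosen with earlier results of these data known. 5 contrasts of the 4 groups were computed.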

Additional observations from a re-analysis of the deposited data

Results flagged for a closer look

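Of 48 groups of 4 libraries examined (the first 4 components, 4 library measures and the log2 CPM of the 4 named genes in each treatment group), 3 held a value far from the other 3, where chance gives about 2.4. On the second principal component C 1 scored 41.7, against -34.8 to -30.5 in the other controls. On the same component UD 2 scored 78.8, against -39.0 to -24.8 in the rest of UD. The median Spearman correlation of IA 2 with the other libraries was 0.7505, against 0.942 to 0.953 in the rest of IA. The named genes held no such value in any group.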

How the results depend on the processing

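The count of 0 genes called by edgeR in the urine comparison was also 0 with RLE and upper quartile scaling, both other filters, first runs only, the 2-group fit, the replicate block, each of 16 libraries left out, and limma-voom with sample quality weights. It was 10 by DESeq2, 15 with the lane term, 1 by DESeq2 with UDR 3 left out and 23 by DESeq2 without both UDR 3 and IA 2; the last 2 settings, the edgeR fit without both and the single-lane fits were added after the data were examined. The 488 genes at an unadjusted p under 0.05 became 878 with no filter beyond 1 count, where 20646 genes were tested, 2027 by limma-voom with sample quality weights and 1652 with the lane term, and 280 to 982 with a library left out.

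For UD minus C the 722 became 1166 with no such filter, 5301 by limma-voom, 1093 with the lane term, 1293 without both UDR 3 and IA 2, 1755 within lane 1, and 242 to 1252 with a library left out (242 without UD 1, 340 without C 3, 457 without C 2, 1252 without UD 3). For UDR minus IA the 1211 became 2013 with the lane term, 398 without both UDR 3 and IA 2, and 776 (without IA 2) to 1632 with a library left out. For the difference between the arms the 1364 became 3770 by limma-voom and 844 to 2012 with a library left out. The cause of these moves was not tested. With no filter beyond 1 count, more genes were tested (20646 in place of 13569).

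The replicate numbers of the labels were also fitted as a block. Same-numbered libraries had correlations of their deviations from -0.57 to 0.64 over 24 pairs, with a mean of 0.040 against -0.0074 for different numbers. Of 16 libraries, 8 correlated best with one of their own number. What chance would give was not computed, so this is at most a hint from the data and not from the design. With same-numbered pairs on both sides of 0 and no label tying a number to a shared source, the libraries were not treated as paired. With the replicate block the urine comparison had 344 genes at an unadjusted p under 0.05 (209 higher, 135 lower) and the other comparisons 612, 866 and 1104. The 4 named genes kept their direction under all alternatives run, on the libraries they were chosen from; their log2 differences with a library left out were 1.51 to 2.07, 0.99 to 1.66, -4.12 to -2.90 and -2.87 to -1.87. Depth limited the 2 lower named genes, which rested on 0 to 8 and 1 to 19 reads in each library with urine removed.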
